A study of Rattus norvegicus with 82 samples.

Results

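The epidermal growth factor (EGF) family ligands and ERBB receptors were followed as 10 genes taken by their symbols: the ligands Tgfa, Hbegf, Areg, Ereg, Btc and Nrg1 and the receptors Egfr, Erbb2, Erbb3 and Erbb4. All 10 were among the 17337 genes of the count table, and 9 of them were among the 11954 genes that passed the filter on low counts. Ereg did not pass. The RNA came from cardiomyocytes of 41 rats, the F1 offspring of female Wistar Kyoto and male Lewis rats, isolated by perfusion with collagenase II and centrifugation, and the right ventricle (RV) and left ventricle (LV) of every rat gave a library each, 82 in all. Rats carried a clip on the pulmonary artery (banding abbreviated PAB, a load on the RV) or around the aorta (AOB, a load on the LV), or had a sham operation, and were studied at a compensated (H) or a decompensated (F) stage.

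The label age was 11 weeks, after 7 weeks of treatment, for Sham-H (7 rats), PAB-H (6 rats) and AOB-H (6 rats). It was 31 weeks, after 26 weeks of treatment, for Sham-F (9 rats) and AOB-F (7 rats), and 28 weeks, after 22 weeks of treatment, for PAB-F (6 rats). PAB-F rats were thus younger than the Sham-F rats they were compared with, and stage and age cannot be told apart. All rats were of a single cross, and both sexes were present in every group, in unequal parts. Males and females numbered 3 and 4 in Sham-H, 4 and 2 in PAB-H and 2 and 4 in AOB-H. They numbered 4 and 5 in Sham-F, 4 and 2 in PAB-F and 4 and 3 in AOB-F. The clips were not constrictive when placed, so load arose as the animals grew. The sources differ on the age at surgery and also on the ages at sampling, for which the label ages are used here. PAB and AOB groups of a stage shared their sham libraries, and each library of a group came from a different animal. The unbanded ventricle of a clipped rat belonged to a diseased heart and was not a healthy control.

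Ligands of the EGF family are made as membrane-bound precursors, cut free by ADAM proteases and bind ERBB receptor tyrosine kinases on the same or a neighbouring cell. Transforming growth factor alpha (Tgfa) and amphiregulin (Areg) bind EGFR, heparin-binding EGF-like growth factor (Hbegf), epiregulin (Ereg) and betacellulin (Btc) bind EGFR and ERBB4, and neuregulin 1 (Nrg1) binds ERBB3 and ERBB4. ERBB2 has no known ligand and acts as partner of the other receptors, and ERBB3 has little kinase activity of its own. In the heart, neuregulin from endothelial cells acts on ERBB4 and ERBB2 of cardiomyocytes, which are needed for trabeculation and for the upkeep of the adult muscle.

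Libraries held 6675287 to 19665439 counts, with a median of 13074485.5. The ventricular cardiomyocyte markers Myh6, Myh7, Myl2, Myl3, Tnnt2, Tnni3, Ryr2 and Actc1 took up 5.04 to 11.6% of counts, and markers of fibroblasts, endothelial cells, mural cells and macrophages were also counted in every group. The first principal component of log2 depth-scaled counts (CPM) over all tested genes held 47% of the variance and set LV libraries of the decompensated groups (scores 25.1 to 90.2) apart from those of the RV (scores of -54.2 to 6.90) and of the compensated LV (scores of -29.8 to 1.12). On this component 5 LV libraries went against their groups: Sham-H replicates 4 and 5, PAB-H replicate 2 and AOB-H replicate 6 lay with the decompensated LV, and PAB-F replicate 5, at 2.75, lay below them. Calls that changed without these 5 libraries, an omission chosen after seeing the data, are given with and without them. In bulk RNA of this kind, fewer cells of a type and less RNA per cell cannot be told apart.

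On the length-corrected scale of fragments per kilobase and sequencing depth (FPKM), averaged over the 82 libraries, Hbegf (11.9 FPKM) and Erbb4 (11.8 FPKM) were the most abundant of the 10 genes, followed by Erbb2 (7.78 FPKM). Egfr (1.37 FPKM) and Erbb3 (1.36 FPKM) were lower, and Btc (0.849 FPKM), Tgfa (0.817 FPKM), Areg (0.359 FPKM) and Nrg1 (0.328 FPKM) lower still. Among ligands, Hbegf made up between 76.8% (RV PAB-F) and 88.7% (LV Sham-H) of the summed ligand FPKM as a group mean. Ereg was at 0 in 64 libraries and had 81 reads in all. Its highest counts were 15 in RV Sham-F replicate 4 and 15 in LV AOB-F replicate 7, and a count of 0 allows up to 3 counts, so Ereg was not compared between groups.

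Of the 10 genes, 7 were matched to a start site in the RefSeq table of the GRCr8 assembly, which was used for sequence only. The 250 bases before the start of Tgfa, the member with the largest banding response, lay at chr4:120175469-120175718 on the plus strand, and those before the start of Erbb4, the member called between the ventricles of both sham groups, at chr9:78045607-78045856 on the minus strand. They are shown 5′ to 3′, with the match to the Sp1 box GGGCGG (or its complement) in capitals:
Tgfa: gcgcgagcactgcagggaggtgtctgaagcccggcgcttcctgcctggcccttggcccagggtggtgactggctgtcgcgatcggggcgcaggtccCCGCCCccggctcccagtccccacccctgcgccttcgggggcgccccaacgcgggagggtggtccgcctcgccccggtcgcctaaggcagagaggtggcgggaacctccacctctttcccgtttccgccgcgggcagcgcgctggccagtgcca
Erbb4: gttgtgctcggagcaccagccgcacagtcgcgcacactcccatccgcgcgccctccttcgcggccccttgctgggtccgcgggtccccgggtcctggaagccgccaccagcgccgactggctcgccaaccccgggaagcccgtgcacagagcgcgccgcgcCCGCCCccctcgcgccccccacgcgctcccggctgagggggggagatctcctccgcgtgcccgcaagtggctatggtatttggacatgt
Both stretches were rich in G and C (74.4% for Tgfa and 73.6% for Erbb4, against a median of 51.2% over 33469 rat promoters of the same length). An Sp1 box, searched on both strands, was present in 6 of the 7 member promoters and in 30.5% of all promoters. The AP-1 motif TGANTCA (6.34% of all promoters) and the EGR motif GCGGGGGCG (2.45%) were found in 0 of the 7, while the cAMP response element TGACGTCA (1.59%) and a TATAAA box (12.9%) were each found in Areg. The MCAT motif CATTCC (12.1%) was found in Erbb2. These matches are letters in a window and not bound sites.

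The decompensated, pressure-loaded RV had the most members called among the banding comparisons. Compared with RV Sham-F, Tgfa, Hbegf and Nrg1 rose and Erbb4 fell in RV PAB-F, so that 4 of the 9 tested members passed an adjusted p of 0.05 in edgeR's quasi-likelihood test. Over all tested genes 11.1% passed (7.66% higher and 3.42% lower). The median log2 fold change of the 9 members was 0.40, against 0.02 over all genes. The study selected its own genes on these samples and its selection held Tgfa and Nrg1, so these increases are not independent evidence.

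Tgfa, a ligand of EGFR, showed the largest response of the family. Normalized counts (raw counts scaled by trimmed mean of M-values, TMM, factors to a library of mean size) of Tgfa in RV Sham-F ranged from 2.47 to 23.2, with a median of 13.2. In RV PAB-F the 6 libraries held 353, 297, 242, 111, 18.6 and 16.5. Thus 4 of the 6 banded libraries lay above every sham library and the other 2 lay within the sham range. The fitted increase was 12.2-fold (log2 fold change 3.61, SE 0.45, edgeR adjusted p = 1.29e-08). Leaving out any single library gave log2 fold changes between 3.28 and 3.85.

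Hbegf, the most abundant ligand, rose by less than Tgfa. Normalized counts of Hbegf were 128 to 247 in RV Sham-F (median 210) and 246 to 486 in RV PAB-F (median 302), and 5 of 6 banded libraries lay above all sham libraries. The increase was 1.63-fold (log2 fold change 0.70, SE 0.17, edgeR adjusted p = 0.00291). Nrg1, the ligand of ERBB3 and ERBB4, rested on a pair of libraries. It held 7.42 to 43.7 in RV Sham-F (median 16.7), whereas RV PAB-F held 248.8 in replicate 1, 96.8 in replicate 5 and 18.6 to 24.7 in the other 4 libraries. The fitted log2 fold change of Nrg1 was 1.66 (SE 0.50, edgeR adjusted p = 0.022) and 0.72 without replicate 1 (adjusted p = 0.479). Nrg1 did not pass without replicate 5 either. The low-abundance ligands Areg (4.58 to 7.64 in RV PAB-F and 4.95 to 12.2 in RV Sham-F) and Btc (4.66 to 23.4 and 2.56 to 12.5) overlapped between the groups. Their log2 fold changes were -0.38 (SE 0.48, edgeR adjusted p = 0.639) for Areg and 0.40 (SE 0.37, edgeR adjusted p = 0.50) for Btc.

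Erbb4, the neuregulin receptor of cardiomyocytes, was lower in all 6 RV PAB-F libraries than in any RV Sham-F library. Its normalized counts were 786 to 1108 in RV Sham-F (median 933) and 319 to 747 in RV PAB-F (median 635). Non-overlapping libraries were seen for 2.71% of all genes. Erbb4 fell by 0.65 on the log2 scale (SE 0.19, edgeR adjusted p = 0.0194). RV PAB-F replicate 1, which had the highest Tgfa, Hbegf and Nrg1, had the lowest Erbb4. Without it, edgeR's adjusted p was 0.0521 for Hbegf and 0.146 for Erbb4, so that Tgfa alone passed.

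The other receptors differed less. Egfr had a log2 fold change of 0.78 (SE 0.31, edgeR adjusted p = 0.0867), with 2 of 6 RV PAB-F libraries above all sham libraries. It passed without RV Sham-F replicate 2 or RV PAB-F replicate 4 or 6, and also without the 5 LV libraries that stood apart (adjusted p = 0.0467). Those LV libraries belong to neither group compared and enter through steps shared by all libraries, such as the normalization and the spread. Erbb2 had a log2 fold change of -0.02 (95% interval of -0.30 to 0.25) and Erbb3 one of -0.03 (95% interval of -0.64 to 0.58).

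Markers of other cells moved in the same comparison. Of the fibroblast markers (Col1a1, Col1a2, Col3a1, Dcn, Lum, Pdgfra and Postn; 6 tested), 4 were higher in RV PAB-F, as were 3 of 5 macrophage markers and 2 of 4 markers of atrial muscle (Nppa, Myl7, Myl4, Sln), of which Nppa is also a load-responsive gene of ventricular muscle. Summed fibroblast marker counts ranged from 1967 to 6294 in RV Sham-F and from 3210 to 22129 in RV PAB-F, and Col1a2 was at 0 in both groups. Summed macrophage marker counts ranged from 153 to 421 and from 238 to 1442. The summed atrial markers ranged from 299 to 918 and from 974 to 100966. Endothelial markers were higher for 1 of 7, mural for 1 of 6, Schwann cell for 1 of 4 and epicardial for 1 of 2 tested genes. RV PAB-F replicate 1 had the highest fibroblast and macrophage scores of its group. The part of these cells in the changes of the ligands and of Erbb4 was not tested.

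**Figure D1:**
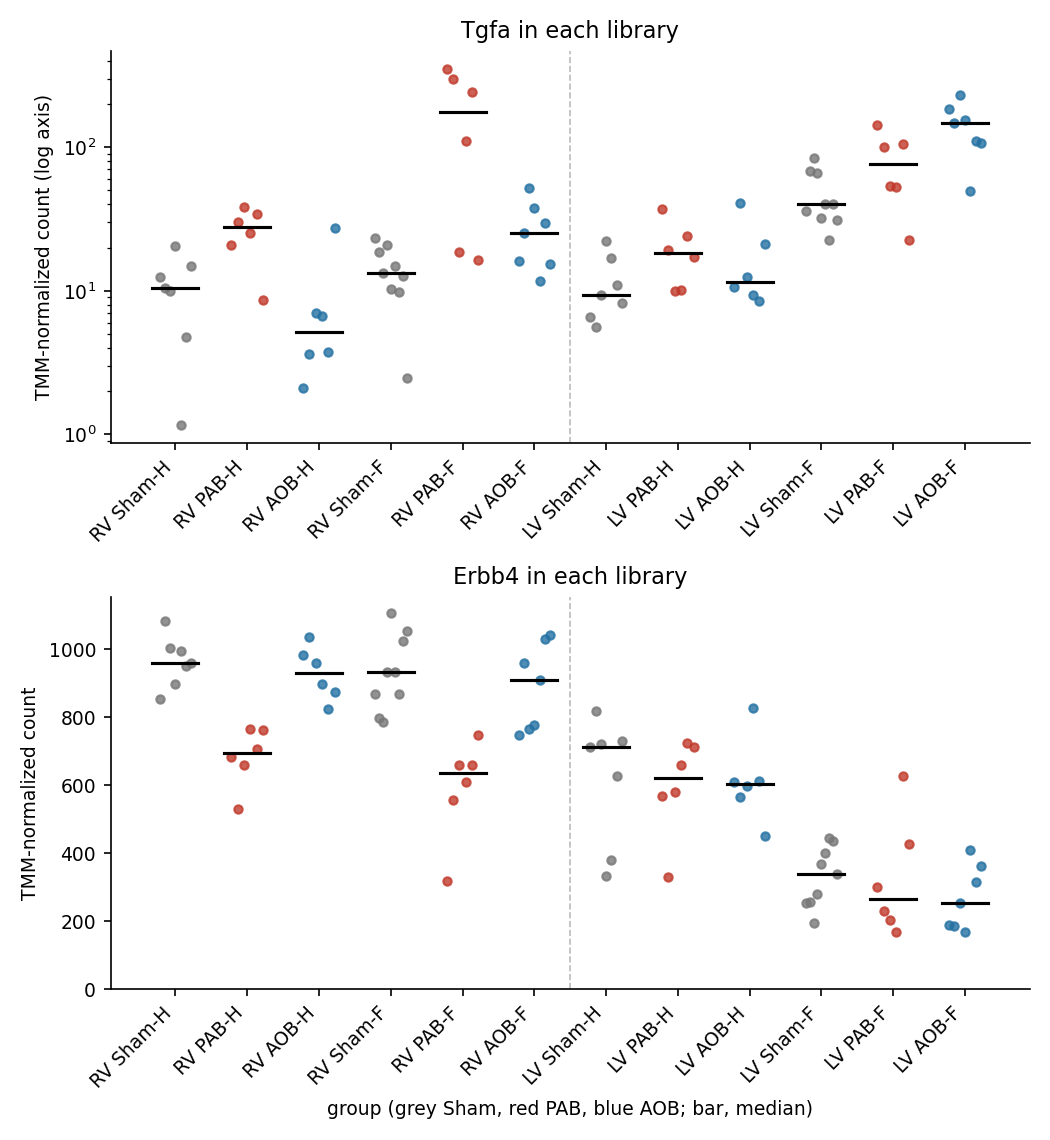
TMM-normalized counts of Tgfa (upper panel, log axis) and Erbb4 (lower panel, linear axis) in every library, by group; each point is a library, bars are medians, and grey, red and blue stand for Sham, PAB and AOB. Tgfa reaches a median of 177 in RV PAB-F and one of 148 among LV AOB-F libraries, and Erbb4 in RV PAB-F (319 to 747) lies below all RV Sham-F libraries.

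At the compensated stage of PAB, 0 of the 9 members passed in the RV against the sham group, with 4.5% of all genes passing (RV PAB-H vs RV Sham-H). At an unadjusted p under 0.05, 5 members passed against 20.6% of all genes. Tgfa held 1.16 to 20.7 in RV Sham-H (median 10.5) and 8.64 to 38.6 in RV PAB-H (median 27.7), with 5 of 6 banded libraries above all sham libraries (a 2.47-fold difference with a log2 SE of 0.52 and an edgeR adjusted p = 0.122). Egfr held 27 to 85.8 in RV Sham-H and 64.2 to 206 in RV PAB-H, with overlap (a 1.99-fold difference with a log2 SE of 0.33 and an edgeR adjusted p = 0.0588). Btc, a ligand near the detection limit with medians of 7.63 and 3.81, had a log2 fold change of -1.08 (SE 0.41, edgeR adjusted p = 0.104).

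Erbb4 again lay lower in all 6 banded libraries (529 to 767) than in any sham library (854 to 1083), with 3.24% of all genes not overlapping. Its log2 fold change was -0.49 (SE 0.20, edgeR adjusted p = 0.135). Egfr passed without RV PAB-H replicate 4, 5 or 6 (lowest edgeR adjusted p = 0.0278). Without the 5 LV libraries that stood apart, Egfr (0.98, adjusted p = 0.0258) and Erbb4 (-0.51, adjusted p = 0.0352) passed. In a fit to these 2 groups alone, Tgfa, Egfr and Erbb4 passed. All 6 tested fibroblast markers were higher in RV PAB-H, with summed counts of 3050 to 5911 in RV Sham-H and 4628 to 32888 in RV PAB-H. Atrial markers were higher for 2 of 4, and endothelial (of 7), mural (of 6), Schwann cell (of 4) and epicardial markers (of 2) for 1 each. Their part in the Egfr and Erbb4 values was not tested.

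Whether the PAB response of the RV differed between stages was tested directly, and 0 of 11954 genes passed (0% of genes). At an unadjusted p under 0.05 in edgeR, 2 of 9 members passed, against 1.48% of all genes. Tgfa had a stage difference of 2.30 on the log2 scale (SE 0.70, edgeR adjusted p = 1). For Erbb4 the difference was -0.16 (95% interval of -0.70 to 0.38).

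In the decompensated, pressure-loaded LV, Tgfa and Hbegf rose in AOB-F against Sham-F. These were 2 of 9 members, with 12.9% of all genes passing. The study's own selection for this comparison also held Tgfa. Normalized counts of Tgfa were 22.4 to 83.5 in LV Sham-F (median 40.1) and 49.5 to 230 in LV AOB-F (median 148). Of the 7 banded libraries, 6 lay above all sham libraries. The increase was 3.02-fold (log2 fold change 1.59, SE 0.40, edgeR adjusted p = 0.00495).

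Hbegf held 150 to 352 in LV Sham-F (median 263) and 256 to 522 in LV AOB-F (median 364), with 4 of 7 banded libraries above all sham libraries. It rose 1.59-fold (log2 fold change 0.67, SE 0.16, edgeR adjusted p = 0.00335), and a fit to these 2 groups alone gave 0.63 (adjusted p = 0.0955). Both calls held without any single library, with log2 fold changes of 1.44 to 1.76 for Tgfa and 0.60 to 0.76 for Hbegf. Erbb4 had a log2 fold change of -0.30 (SE 0.19, edgeR adjusted p = 0.286), with overlapping libraries. Macrophage markers were higher for 3 of 5 genes in LV AOB-F (summed counts of 339 to 1126 in LV Sham-F and 358 to 1873 in LV AOB-F), and atrial markers for 1 of 4 (1982 to 12647 and 5159 to 32487). Endothelial markers were higher for 2 of 7 (19327 to 42281 and 19468 to 50636), and fibroblast markers for 1 of 6 (4785 to 15001 and 7419 to 17032), mural for 1 of 6 and Schwann cell markers for 1 of 4. Their part in the ligand changes was not tested.

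In the compensated LV, 0 of 9 members passed in AOB-H against Sham-H (0.0167% of all genes). Erbb2 had the smallest unadjusted p and was 1 of 9 members under 0.05 there, against 20% of all genes (log2 fold change -0.33, SE 0.15, edgeR adjusted p = 0.203), and 4 of 6 banded libraries lay below all sham libraries. DESeq2 also called none of the members there.

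**Figure D2:**
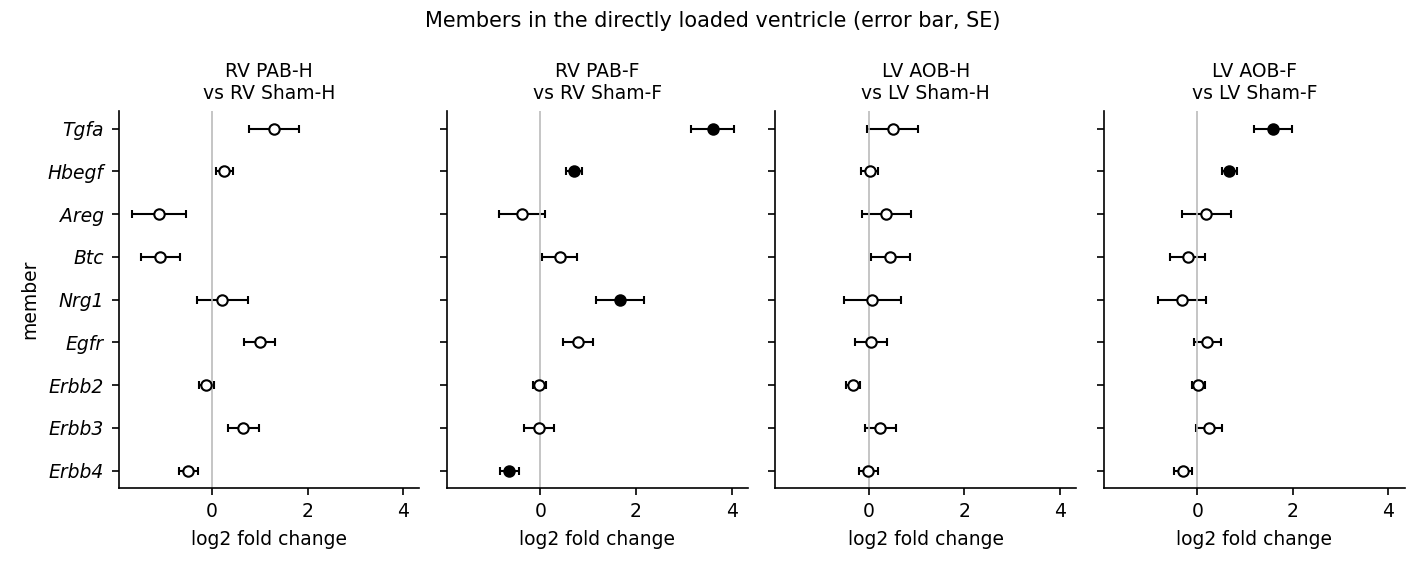
Log2 fold change of the 9 tested members in the ventricle under load, against the stage-matched sham libraries (horizontal axis; 4 panels, 1 per comparison; error bars are SE from edgeR; filled points passed an adjusted p of 0.05). In RV PAB-F, Tgfa (3.61), Hbegf (0.70), Nrg1 (1.66) and Erbb4 (-0.65) passed, and in LV AOB-F Tgfa (1.59) and Hbegf (0.67).

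The ventricle that was not loaded directly gave no member that passed. RV AOB-F against RV Sham-F had 0 of 9 members and 0.0669% of all genes, and the LV of PAB-H, the LV of PAB-F and the RV of AOB-H each had 0 of 9 members and 0% of all genes. At an unadjusted p under 0.05 a member passed in 3 of these 4 comparisons. It was Tgfa in RV AOB-F (log2 fold change 0.93, SE 0.46; 4 of 7 libraries above all sham libraries), against 4.32% of all genes. It was Areg in LV PAB-F (1.21, SE 0.48), against 3.8% of all genes, and Btc in RV AOB-H (-0.92, SE 0.41), against 1.43%. In LV PAB-H 0 members and 2.55% of all genes passed at that level. The edgeR adjusted p of all 4 comparisons was at least 0.991 for every member. DESeq2 called no member in these comparisons.

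Tgfa was the member whose PAB-F response passed the test of a difference between ventricles. The PAB-F response of Tgfa was larger in the RV than in the LV by 2.84 on the log2 scale (SE 0.62, edgeR adjusted p = 0.0159), 1 of 9 members, with 0.351% of all genes passing. Without RV PAB-F replicate 1 it was 2.51 (adjusted p = 0.123), and it was also lost without replicate 2. With the animal as a block it was 2.43 (adjusted p = 0.00457). In 4 of 6 PAB-F rats Tgfa was higher in the RV than in the LV, whereas it was lower in the RV in 9 of 9 Sham-F rats. The AOB-F response did not pass as different between the ventricles for any member (0% of all genes in edgeR, and 9.71% of all genes but 0 members at an unadjusted p under 0.05). For Tgfa the difference, LV minus RV, was 0.67 (SE 0.62, edgeR adjusted p = 0.713).

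Between the ventricles of sham rats, Erbb4 was higher in the RV at both ages. In Sham-H, Erbb4 held 333 to 817 in the LV (median 713) and 854 to 1083 in the RV (median 958), without overlap, as 4.59% of genes did. It was the only member that passed (log2 fold change 0.64, SE 0.19, edgeR adjusted p = 0.0139), with 21% of all genes passing. The call rested on the LV libraries that stood apart, replicates 4 (333) and 5 (380): it was lost without either, and without all 5 such LV libraries the log2 fold change was 0.43 (adjusted p = 0.146). RV exceeded LV in 7 of 7 rats, and with the animal as a block Erbb4 (0.70, adjusted p = 0.00125) and Nrg1 (1.24, adjusted p = 0.0286) passed. Endothelial markers were lower in RV Sham-H than in LV Sham-H for 4 of 7 genes and mural markers for 2 of 6. So were atrial (of 4) and epicardial markers (of 2 tested) for 1 each. The part of these cells in the Erbb4 and Nrg1 differences was not tested.

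In Sham-F, 5 of 9 members passed against 74.3% of all genes, a smaller share than that of all genes. Erbb4 was 194 to 446 in the LV (median 340) and 786 to 1108 in the RV (median 933), a 2.82-fold difference (log2 fold change 1.49, SE 0.17, edgeR adjusted p = 7.2e-12) with no overlap, as for 41.8% of genes. Erbb3, its relative with weak kinase activity, was lower in the RV (13.6 to 85.5, median 47.1) than in the LV (55.9 to 226, median 113) by 1.25 on the log2 scale (log2 fold change -1.25, SE 0.27, edgeR adjusted p = 3.2e-05). It was lower in the RV of 9 of 9 rats.

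Egfr was likewise lower in the RV (19.8 to 96.1, median 46.2) than in the LV (62.7 to 144, median 84.3), with a log2 fold change of -0.91 (SE 0.28, edgeR adjusted p = 0.00327). Tgfa held 2.47 to 23.2 in the RV and 22.4 to 83.5 in the LV (log2 fold change -1.71, SE 0.42, edgeR adjusted p = 0.000231). Areg, a low-abundance ligand with medians of 6.86 in the RV and 2.04 in the LV, was higher in the RV (log2 fold change 1.20, SE 0.45, edgeR adjusted p = 0.0147). With the animal as a block, Hbegf (-0.28, adjusted p = 0.0142) and Erbb2 (-0.23, adjusted p = 0.0303) also passed as lower in the RV, which made 7 of 9. Of 7 endothelial markers 5, of 6 mural markers 4 and of 6 tested fibroblast markers 3 were lower in RV Sham-F than in LV Sham-F. Of 5 macrophage markers 2 and of 2 tested epicardial markers 1 were also lower. Of 7 endothelial markers 1 was higher, and Schwann cell and atrial markers (4 each) had 1 higher and 1 lower. Of 8 ventricular cardiomyocyte markers 3 were higher and 2 lower. These 8 took up 9.01 to 11.2% of counts in RV Sham-F and 7.39 to 8.88% in LV Sham-F. Summed mural marker counts ranged from 2274 to 4192 in the RV and from 3550 to 8689 in the LV. The part of these cells in the Erbb4, Erbb3 and Egfr differences was not tested.

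**Figure D3:**
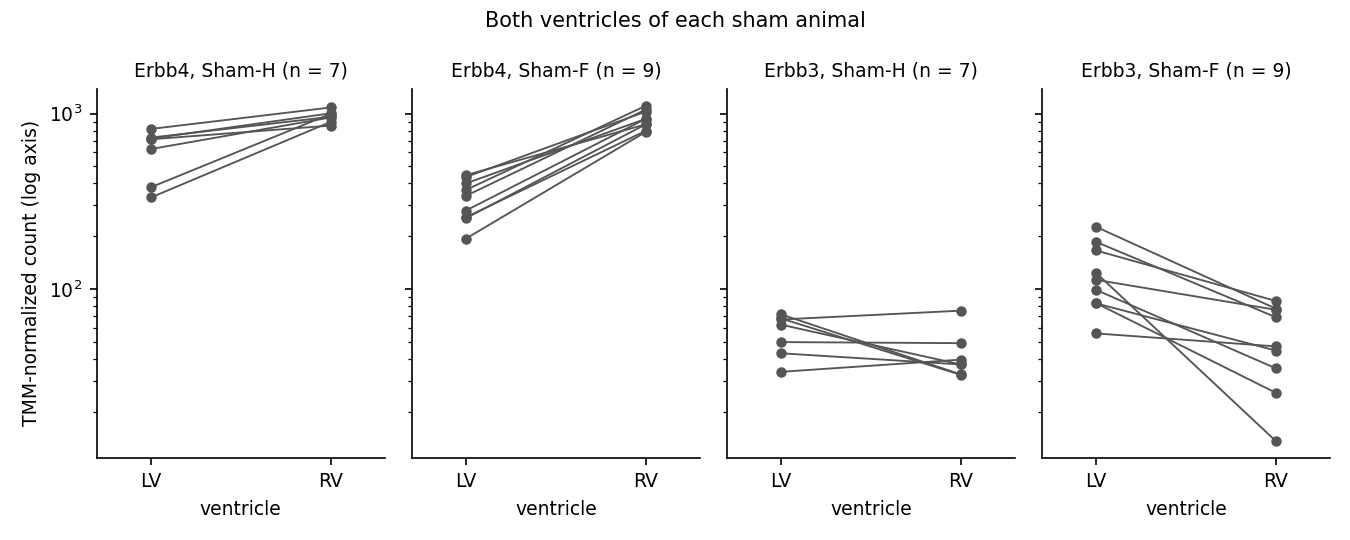
TMM-normalized counts (vertical axis, log scale) of Erbb4 (left panels) and Erbb3 (right panels) in the LV and RV of each sham rat; lines join the ventricles of a rat. Erbb4 is higher in the RV in 7 of 7 Sham-H and 9 of 9 Sham-F rats, and Erbb3 lower in the RV in 9 of 9 Sham-F rats.

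The older and younger sham rats were then compared within each ventricle. In RV Sham-F against RV Sham-H 0 of 9 members passed (0.0502% of all genes), 0 of 9 at an unadjusted p under 0.05 in edgeR (5.03% of all genes) and 0 of 9 in DESeq2. The 95% intervals of the log2 fold change were -0.41 to 0.30 for Erbb4 and -0.31 to 0.87 for Erbb3. In LV Sham-F against LV Sham-H 3 of 9 members passed, against 57.4% of all genes. Tgfa was higher in all 9 older LV libraries (22.4 to 83.5) than in the younger ones (5.59 to 22.4), where 1.68% of genes did not overlap (log2 fold change 1.97, SE 0.46, edgeR adjusted p = 0.000242).

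Erbb3 was higher in the older LV (log2 fold change 1.15, SE 0.29, edgeR adjusted p = 0.000585). Erbb4 was lower there (log2 fold change -0.90, SE 0.18, edgeR adjusted p = 3.38e-05). The change of the ventricle difference with age passed for Erbb4 (0.85, SE 0.26, edgeR adjusted p = 0.00679), 1 of 9 members against 41.6% of all genes. With the animal as a block, Tgfa (-1.60, adjusted p = 0.0136) and Erbb3 (-0.88, adjusted p = 0.0263) passed as well. The same 3 genes passed without the 5 LV libraries that stood apart. With the first principal component as a covariate, which itself separates the older LV from the RV, 0 of 9 members passed in RV against LV of Sham-F, in the LV with age or in this change, and Erbb4 lay at -0.074, 0.029 and -0.15 on the log2 scale. Mural markers were higher in LV Sham-F than in LV Sham-H for 4 of 6 genes. So were Schwann cell and atrial markers for 2 of 4 each, fibroblast markers for 2 of 6 and macrophage markers for 2 of 5. Endothelial markers were higher for 2 of 7 and lower for 1, and ventricular cardiomyocyte markers higher for 2 of 8 and lower for 3. The part of these cells in the Tgfa, Erbb3 and Erbb4 changes was not tested.

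Across the 12 groups the order of Erbb4 medians ran from RV Sham-H (958), RV Sham-F (933), RV AOB-H (929) and RV AOB-F (910) through LV Sham-H (713), RV PAB-H (695), RV PAB-F (635), LV PAB-H (620) and LV AOB-H (604) to LV Sham-F (340), LV PAB-F (265) and LV AOB-F (254). Neighbours in this order overlapped in their libraries, except that LV AOB-H (450 to 828) lay above LV Sham-F (194 to 446). RV exceeded LV for Erbb4 in 5 of 6 PAB-H rats and in all rats of the other 5 conditions. The order of Tgfa medians ran from RV AOB-H (5.19), LV Sham-H (9.35), RV Sham-H (10.5), LV AOB-H (11.5), RV Sham-F (13.2) and LV PAB-H (18.2) through RV AOB-F (25.1), RV PAB-H (27.7), LV Sham-F (40.1) and LV PAB-F (76.6) to LV AOB-F (148) and RV PAB-F (177), and all neighbours in it overlapped.

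The mean Erbb4 share of receptor mRNA was larger in the RV than in the LV in 5 of the 6 conditions. In PAB-H it was 53.2% ± 4.95 in the RV and 55% ± 9.35 in the LV (SD, n = 6). On the FPKM scale Erbb4 made up 65.4% ± 4.86 (SD, n = 9) of the summed receptor level in RV Sham-F, 52.6% ± 9.29 (SD, n = 6) in RV PAB-F, 32.6% ± 6.57 (SD, n = 9) in LV Sham-F and 27.2% ± 7.48 (SD, n = 7) in LV AOB-F. Erbb2, the partner without a ligand, made up 27.5% ± 3.72 of the sum in RV Sham-F and 45.9% ± 5.33 in LV Sham-F (SD, n = 9). The Erbb2 level itself had a log2 fold change of -0.23 between these groups (SE 0.13, edgeR adjusted p = 0.0878). It passed as lower in the RV with the animal as a block. In the banding comparisons the Erbb2 level did not pass. Summed receptor FPKM was 26.2 ± 2.30 in RV Sham-F and 18.5 ± 2.06 in LV Sham-F (SD, n = 9). Among ligands, Tgfa was 2.11% ± 0.768 (SD, n = 9) of the summed FPKM in RV Sham-F and 12.3% ± 8.45 (SD, n = 6) in RV PAB-F. These shares describe the tested levels and were given no test of their own.

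**Figure D4:**
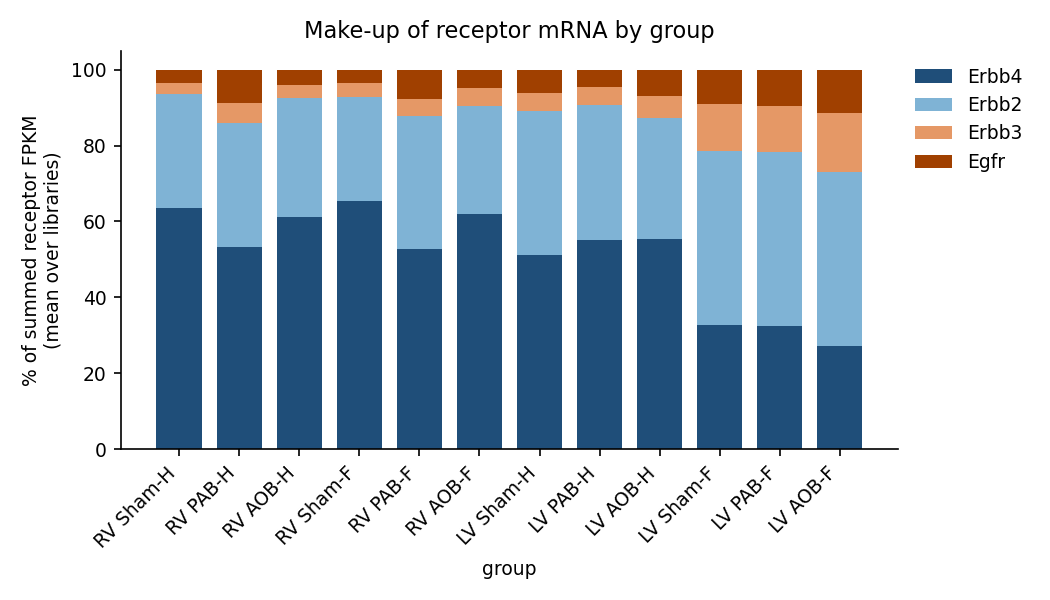
Stacked bars of the mean share of each ERBB receptor in the summed receptor FPKM of a library (vertical axis, percent), by group (horizontal axis). Erbb4 makes up 65.4% in RV Sham-F and 52.6% in RV PAB-F, but 32.6% in LV Sham-F and 27.2% in LV AOB-F.

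Rats of both sexes were present in every group, and a comparison of females with males, chosen after values had been seen, was fitted with 24 groups by sex and averaged over the 6 conditions of a ventricle (20 females and 21 males). In the LV, Erbb4 and Erbb2 were higher in females, 2 of 9 members against 19.5% of all genes. Erbb4 in LV Sham-F held 194 to 280 normalized counts in 4 males and 340 to 446 in 5 females, and in LV AOB-F 167 to 254 in 4 males and 315 to 408 in 3 females, without overlap in either group. In LV PAB-F it held 168 to 300 in 4 males and 426 to 626 in 2 females. The 626 was replicate 5, among the 5 LV libraries that stood apart. In LV Sham-H the order was the other way, with 713 to 817 in 3 males and 333 to 729 in 4 females, among them both Sham-H libraries that stood apart. The log2 difference, female minus male, was 0.46 for Erbb4 (SE 0.08; edgeR adjusted p = 5.76e-05) and 0.28 for Erbb2 (SE 0.08; edgeR adjusted p = 0.00756).

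In the RV, Erbb3 was lower in females (log2 difference -0.62, SE 0.16; edgeR adjusted p = 0.0204), 1 of 9 members against 2.62% of all genes. In RV Sham-F it held 69.1 to 85.5 in 4 males and 13.6 to 47.1 in 5 females, without overlap. In RV AOB-F (median 74.8 in males and 78.2 in females) and RV PAB-F (47.6 and 49.6) the medians lay the other way, with overlap. Erbb4 in the RV had a difference of 0.14 (SE 0.08; edgeR adjusted p = 0.453). These calls were the same 3 genes with RLE factors, without the filter and without the 5 LV libraries that stood apart. Whether the sex difference itself differed between the ventricles was not tested.

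Other genes of the pathway came from a list of 67 further ligands, sheddases, adaptors and effectors, inhibitors and targets, of which 59 were tested. In RV PAB-F, 2 passed as higher and 9 as lower (11.1% of all genes passed in either direction), with a median log2 fold change over the 59 of -0.00 against 0.02 over all genes. The sheddase Adam15 was higher (log2 fold change 0.73, SE 0.25, edgeR adjusted p = 0.0499). Of the 13 ERK-responsive targets, 1 passed as higher and 4 as lower, with a median log2 fold change of 0.14 over the 13. Among them, the phosphatase gene Dusp5 (-1.04, SE 0.25, adjusted p = 0.00355) and Phlda1 (-0.69, SE 0.18, adjusted p = 0.00625) were lower in edgeR. The feedback inhibitor Spry2 was lower too (-0.49, SE 0.15, adjusted p = 0.0279), as were the adaptor Grb2 (-0.29, SE 0.10, adjusted p = 0.0379) and the transcription factor Stat5a (-0.38, SE 0.13, adjusted p = 0.0348).

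In LV AOB-F, 8 of the 59 passed as higher and 4 as lower, where 12.9% of all genes passed. The ligand Egf, founder of the family, was lower in edgeR by 0.96 on the log2 scale (log2 fold change -0.96, SE 0.26, adjusted p = 0.0107). Its normalized counts were 20.5 ± 9.12 in LV AOB-F (SD, n = 7) and 39.6 ± 15.1 in LV Sham-F (SD, n = 9). The small GTPase gene Nras (0.71, adjusted p = 0.000945), Stat3 (0.57, adjusted p = 0.00367), the targets Etv4 (0.94, adjusted p = 0.0351) and Myc (0.87, adjusted p = 0.0218), and the sheddase Adam9 (0.49, adjusted p = 0.0129) were higher in edgeR. So were the negative regulators Cblb (0.54, adjusted p = 0.00823) and Socs5 (0.35, adjusted p = 0.0169). At the compensated stage the list had 1 higher and 2 lower in RV PAB-H (4.5% of all genes passed), where Adam15 was higher (0.86, adjusted p = 0.049) and Dusp5 (-0.82, adjusted p = 0.0493) and Fos (-0.57, adjusted p = 0.0349) lower, and 0 of 59 in LV AOB-H.

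Between the ventricles of Sham-F rats 22 of the 59 passed as higher in the RV and 24 as lower, a share near the 74.3% of all genes that passed, so the named genes describe the list and do not set it apart. Adam15 showed the largest of the named differences, with 316 ± 34.9 normalized counts in the RV and 2070 ± 290 in the LV (SD, n = 9; log2 fold change -2.71, edgeR adjusted p = 1.67e-15). The sheddase regulator Rhbdf2 (-1.49, adjusted p = 6.21e-12), the inhibitors Spry1 (-1.90, adjusted p = 2.77e-10) and Spry4 (-1.55, adjusted p = 4.06e-11), the kinase gene Src (-1.70, adjusted p = 2.52e-09) and the targets Fosl1 (-1.45, adjusted p = 2.42e-06) and Ccnd1 (-1.39, adjusted p = 1.1e-10) were lower in the RV. The PI3-kinase regulatory subunit gene Pik3r1 (1.41, adjusted p = 1.2e-11) and the ligand Nrg4 (1.27, adjusted p = 0.00809) were higher there. In Sham-H, 5 passed as higher and 9 as lower, near the 21% of all genes, among them Adam15 (-1.48, adjusted p = 7.95e-05), Rhbdf2 (-0.70, adjusted p = 0.00824), Spry4 (-0.80, adjusted p = 0.00591), the receptor-degrading ligase gene Rnf41 (-0.40, adjusted p = 0.00145), Ccnd1 (-0.77, adjusted p = 0.00468), Pik3ca (0.47, adjusted p = 0.0212), Pik3r1 (0.55, adjusted p = 0.0276) and Dusp5 (0.76, adjusted p = 0.0223), all from edgeR.

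Across the 82 libraries, which share animals and groups and differ in the cells they held, the genes most like each member were taken by Pearson correlation of log2 CPM. For Erbb4 they were Inpp4b (0.95), Esrrg (0.95), Kif13a (0.94), Thrb (0.94) and Ppargc1a (0.94). For Tgfa they were C2 (0.85), Ankrd23 (0.84), Nppa (0.81), Ecm1 (0.81) and Hs3st2 (0.80), and for Hbegf Ankrd23 (0.75), Rnd1 (0.73), Tgfb2 (0.71), Gpnmb (0.70) and Litaf (0.70). Ankrd23, an ankyrin repeat gene of striated muscle, stood in both ligand lists. With the group means removed, the correlations of the named genes were 0.76 to 0.84 for Erbb4, 0.53 to 0.73 for Tgfa and 0.49 to 0.61 for Hbegf.

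For Egfr the nearest genes were those of fibroblasts and matrix, Thbs2 (0.83), Fbn1 (0.83), Pdgfra (0.83), Col3a1 (0.82) and Fbln1 (0.80). For Erbb3 they were Cadm3 (0.86), C1r (0.85), Col16a1 (0.84), Lrp1 (0.84) and Lgi4 (0.84). For Nrg1 they were C4a (0.68), Smoc1 (0.67), H19 (0.65), the mesothelial gene Msln (0.64) and Plvap (0.63). For Erbb2 they were Nup210 (0.69), the ventricular transcription factor Irx4 (0.68), Itga7 (0.68), Slc4a3 (0.67) and Adrb1 (0.67). With the group means removed, the correlations were 0.78 to 0.83 for Egfr and 0.69 to 0.76 for Erbb3. They were 0.60 to 0.68 for Nrg1 and 0.65 to 0.77 for Erbb2.

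Marker scores (the mean log2 CPM of the tested genes of a marker list) were set beside the members over the same 82 libraries, as a description. Egfr correlated most with the fibroblast score (Pearson 0.82, Spearman 0.80). Erbb3 correlated with the mural (Pearson 0.81, Spearman 0.77) and the Schwann cell score (Pearson 0.75, Spearman 0.73). Tgfa correlated with the atrial score (Pearson 0.69, Spearman 0.69) and Nrg1 with the epicardial score (Pearson 0.57, Spearman 0.58). Erbb4 correlated negatively with the endothelial (Pearson -0.77, Spearman -0.82) and mural scores (Pearson -0.77, Spearman -0.65), and with the first principal component at -0.93 (Spearman -0.92), a size over 0.93 that was reached by 6.93% of all tested genes. Erbb2 and Btc had no Pearson correlation with a marker score beyond 0.30 in size (largest for Erbb2, -0.298 with the endothelial score). The Spearman correlation of Erbb2 with the Schwann cell score was -0.303.

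**Figure D5:**
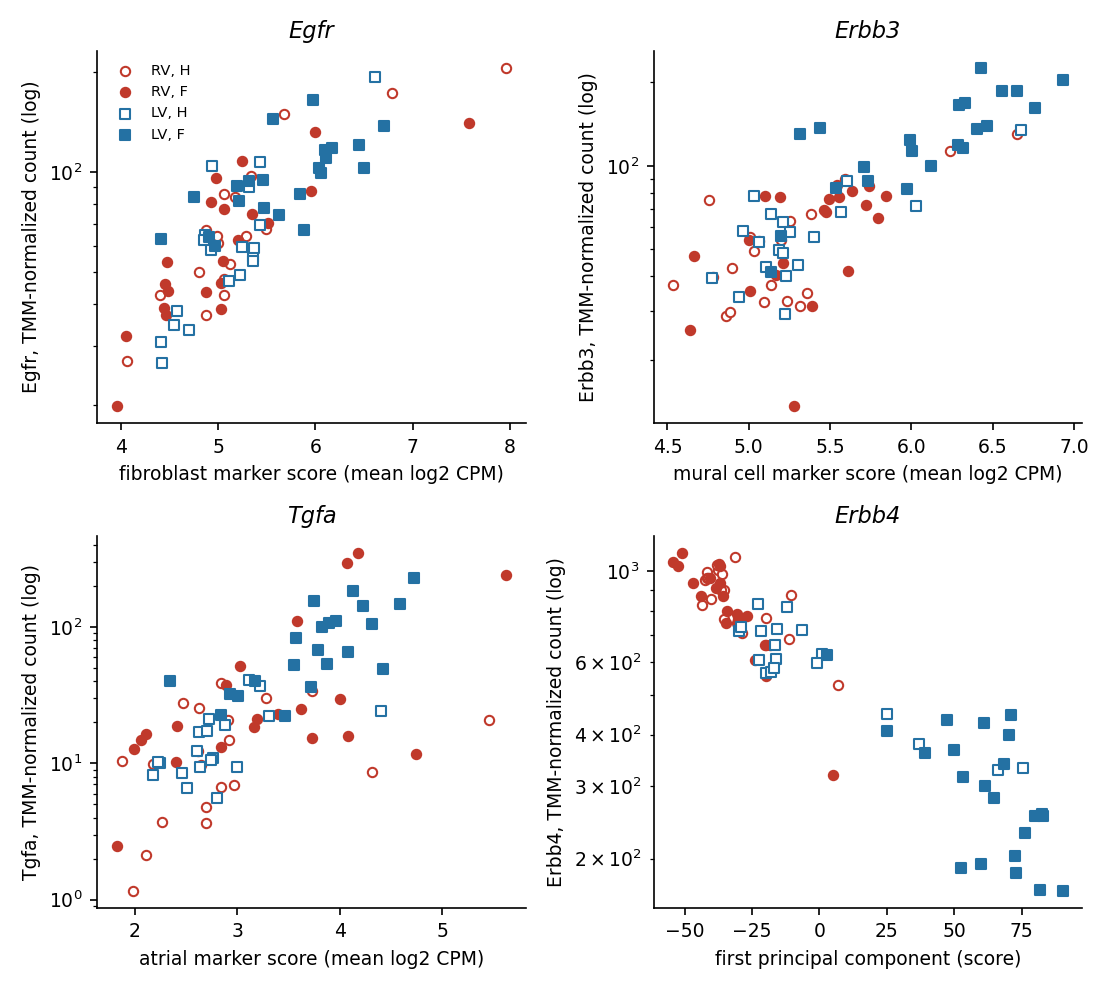
TMM-normalized counts (log axes) of Egfr, Erbb3, Tgfa and Erbb4 against the fibroblast, mural and atrial marker scores (mean log2 CPM) and the first principal component; each point is a library, circles RV, squares LV, open H, filled F. Pearson correlations of log2 CPM over the 82 libraries are 0.82 for Egfr, 0.81 for Erbb3, 0.69 for Tgfa and -0.93 for Erbb4.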

How the data were processed

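Cardiomyocyte total RNA depleted of ribosomal RNA was sequenced in 82 libraries. Per the labels, reads were trimmed with Trim Galore, aligned with STAR and counted with featureCounts; the methods name the Rnor6.0 build. The deposited table held raw counts per gene, normalized counts and FPKM. The authors' normalized counts (a signal) were counts over a DESeq2 1.28.1 size factor, and their FPKM came from scaled counts and gene length. Raw and normalized counts differed by a constant factor within each library. That factor was not compared with a size factor computed from the raw counts. The authors' comparison workbook was not used here. Raw counts were tested with edgeR 4.0.16 (R 4.3.3): TMM factors, filterByExpr, 1 quasi-likelihood fit of the 12 groups and Benjamini-Hochberg adjustment over 11954 genes, with a call at an adjusted p under 0.05. Printed normalized counts are counts scaled by TMM to the mean library; FPKM served for levels between genes and log2 CPM (prior count 2) for correlations. The fit was tested on simulated data. No pair of libraries held identical values. Within a ventricle, p-values rest on the spread between libraries of a group, each from a different animal. The main fit treated the RV and LV libraries of a rat as independent. Its p-values for RV against LV therefore do not measure the spread of the difference within rats, which the fit with the animal as a block does. Depth limits Ereg, Areg and Btc, and counting error alone is covered by the count floor.

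Groups came from the labels. RV and LV with the same replicate number carry the same animal identifier, and same-animal libraries deviated together (median correlation of 0.186 to 0.297 by condition), so a fit with the animal as a block was run as well. Alternatives were RLE factors, no filter, sex as covariate, blocks, fits to 2 groups, the study's criteria (absolute log2 fold change above 1, p up to 0.01, mean above 50), DESeq2 1.42.0 and each library left out; the covariate from the first component, the omission of 5 LV libraries and the comparison of sexes were added after seeing the data. The members, the pathway list and the marker lists were chosen with earlier results of these data known. Named pathway genes are, in the 4 loaded comparisons and in RV against LV of each sham group, the 2 called genes per role with the largest absolute log2 fold change, and named correlates the 5 highest per member with a median of at least 10 counts.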

Additional observations from a re-analysis of the deposited data

Results flagged for a closer look

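In 12 of 108 combinations of a member and a group, a single library lay further from the others than Dixon's 95% critical value allows. Chance gives about 1 in 20 for normally distributed values. The values here were normalized counts without a log transform, for which that rate need not hold. For Nrg1 the libraries past the critical value included RV PAB-F replicate 1 (248.8 normalized counts) and RV AOB-H replicate 6 (92.4). The others were LV PAB-F replicate 1 (75.8) and LV PAB-H replicate 2 (45.1). Each of these was the highest of its group. LV PAB-F replicate 1 and RV PAB-F replicate 1 came from the same rat. Egfr was far above its group in both ventricles of another rat, with 193 in LV AOB-H replicate 6 and 149 in RV AOB-H replicate 6, and Tgfa was also high in that RV (27.6, against at most 6.97 in the other 5 libraries). The LV library of this rat is one of the 5 that stood apart. Single high values were further seen for Hbegf in RV AOB-H replicate 1 (276), Areg in LV Sham-H replicate 7 (11.9), Btc in RV PAB-F replicate 1 (23.4) and Erbb3 in RV Sham-H replicate 2 (75.3). Erbb2 was low in LV PAB-F replicate 3 (410).

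Effects that differed between groups by a test of the difference itself were the PAB-F response of Tgfa, larger in the RV than in the LV by 2.84 on the log2 scale, and the RV to LV difference of Erbb4, larger in Sham-F than in Sham-H by 0.85. The first was lost without RV PAB-F replicate 1 or 2.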

How the results depend on the processing

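Over the alternatives, members and comparisons, 3565 values kept their side of the threshold, 25 gained a call and 19 lost a call. Among the 3565, 143 changed sign while not called in either fit. Over all values, 0 called values changed sign. These counts leave aside the first principal component as covariate and the omission of the 5 LV libraries, which were added after seeing the data. Counts of members called moved as follows. In RV PAB-H, 0 became 3 in a fit to the 2 groups, 2 without the 5 LV libraries and 0 to 1 without single libraries. In RV PAB-F, 4 became 2 under the study's criteria (Tgfa, Nrg1), 2 with the first principal component as covariate (Tgfa, Hbegf) and 1 to 5 without single libraries. In LV AOB-F, 2 became 1 (Tgfa) in a fit to the 2 groups and under the study's criteria, and 3 with the component, where Erbb4 gained a call (-0.44, edgeR adjusted p = 0.00837). Between the Sham-H ventricles, 1 became 2 with the animal block, 0 under the study's criteria, 0 without the 5 LV libraries and 0 to 1 without single libraries, and with the component Nrg1 (2.42, edgeR adjusted p = 0.0149) passed in place of Erbb4. Between the Sham-F ventricles, 5 became 2 under the study's criteria and 0 with the component. In the LV with age, 3 became 1 under the study's criteria and 0 with the component. The PAB-F response, RV minus LV, went from 1 to 0 with the component and 0 to 1 without single libraries. The ventricle difference with age went from 1 to 3 with the animal block, 2 in DESeq2, 3 without the 5 LV libraries, 0 with the component and 1 to 2 without single libraries.

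Calls gained without a single library, beside those given above, were Hbegf between the Sham-F ventricles (without LV Sham-F replicate 8, edgeR adjusted p = 0.0258), Nrg1 in the LV with age (without LV Sham-H replicate 3, edgeR adjusted p = 0.0464) and, in the ventricle difference with age, Erbb3 (without LV Sham-F replicate 8, edgeR adjusted p = 0.0485) and Tgfa (without any of 7 libraries, lowest edgeR adjusted p = 0.0271).

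The component was computed from the same genes and itself separates the older LV from the RV. With it, the values that changed sign were Egfr (0.99), Erbb3 (0.53) and Erbb4 (-0.074) between the Sham-F ventricles, Erbb4 (0.029) in the LV with age and Erbb4 (-0.15) in the ventricle difference with age; none passed.

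Replicate numbers of different conditions shared no animal. Replicates 1 and 2 were male and replicates from 5 up were female in every condition, so the number also carries sex in part. The median correlation of libraries with the same number was -0.103 to 0.160, and 14 of 64 libraries correlated best with their own number. With that number as a block, Nrg1 in RV PAB-F was lost (1.45, edgeR adjusted p = 0.0682), and 3 members passed.

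Counts over all genes moved by over 1.5 times in places. In RV PAB-H, 538 became 346 without the filter, 326 with sex, 1642 in the fit to the 2 groups and 217 under the study's criteria. In RV PAB-F, 1325 became 2726 and 227 under the latter pair, and in LV AOB-F 1541 became 15 and 145. In LV AOB-H, 2 became 35 in DESeq2 and 25 under the study's criteria. Between the Sham-H ventricles, 2510 became 3887 with the animal block, 1499 in the fit to the 2 groups and 259 under the study's criteria, under which 8876 became 2877 in Sham-F and 6860 became 891 in the LV with age. The PAB-F response, RV minus LV, went from 42 to 21 with RLE, 16 without the filter and 349 with the animal block. The cause was not tested.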
